A study of Homo sapiens with 9 samples.

Results

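The squamous lineage transcription factors described here are 9 genes that help to specify or maintain stratified epithelium: TP63, SOX2, PAX9, TFAP2A, TFAP2C, KLF4, KLF5, GRHL2 and OVOL1. They were chosen by name and not by a rule on their measured values, with earlier results of these data known. All 9 were listed among the 16366 genes of the expression table. They were measured in Cal-27, an established line from a squamous carcinoma of the tongue, in which every library carries the genotype label WT. The first group had received exosomes of cancer-associated fibroblasts (labelled CAFs) for 48 h, the second had received hOMF exosomes for the same 48 h, and the third was labelled Normal Control. The labels do not spell out hOMF and in places write hMOF. There were 3 libraries in each group, all from cells grown in high-glucose DMEM with 10% fetal bovine serum. As a model it is 1 cancer cell line in culture without the tissue around it. The labels state neither the exosome dose nor what the control cells received in place of exosomes.

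Stratified epithelia such as the lining of the mouth renew from a basal layer, whose cells stop dividing, move up and turn on barrier genes. The p63 protein holds the basal programme in place together with AP-2 factors and KLF5, while KLF4 and OVOL1 act as cells leave the basal layer, and GRHL2 maintains junctions and epithelial identity. SOX2 and PAX9 mark the oral and oesophageal branch of this lineage, and TP63 and SOX2, which lie on the same arm of chromosome 3, are often amplified together in squamous carcinomas.

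The table held between 11185672 and 12779101 expected counts per library, estimates of how many fragments came from each gene. Control replicate 3 stood apart: 158 genes had over 1 TPM (a measure of transcript abundance scaled for length and depth) there and more than 5 times the highest value of any other library, against 0 to 4 such genes in each of the other 8 libraries. Neutrophil granule genes were among them, with ELANE at 110.75 TPM against 0 to 0.62, and AZU1 at 85.17 TPM against 0 to 0.4. The leukocyte gene PTPRC was at 2.44 TPM there against 0 to 0.03, and the mesenchymal filament gene VIM at 34.41 TPM against 0.23 to 0.56. Together the 158 genes made up 0.151% of the TPM of that library. The calls against control named below are therefore also given without it where it changes them, and the part of these transcripts in the results was not tested.

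All 8 squamous carcinoma markers examined, KRT5, KRT14, KRT6A, KRT17, DSG3, S100A2, SFN and CDH1, were detected. Their summed level was 6936 to 7063 TPM with CAF exosomes, 5940 to 6674 TPM with hOMF exosomes and 5011 to 6377 TPM in control cells. Of 10 fibroblast markers 9 were listed, summing to 15.37 to 15.81 TPM with CAF exosomes, 14.77 to 16.66 TPM with hOMF exosomes and 10.9 to 12.53 TPM in control cells. Most of that sum was COL1A1, at 9.04 to 13.91 TPM, while COL3A1 stayed at 0.02 TPM or less. Of 4 endothelial markers 3 were listed, summing to 6.36 to 7.17 TPM with CAF exosomes, 6.64 to 7.55 TPM with hOMF exosomes and 7.86 to 11.18 TPM in control cells. CDH5, at 5.59 to 10.47 TPM, made up most of the endothelial sum. Of 6 leukocyte markers 4 were listed, summing to 40.86 to 48.93 TPM with CAF exosomes, 42.3 to 44.37 TPM with hOMF exosomes and 37.63 to 46.19 TPM in control cells. CD68, at 29.05 to 39.06 TPM, made up most of the leukocyte sum, and CD14 was at 4.84 to 10.28 TPM. PTPRC ran from 0 to 2.44 TPM and LYZ from 0 to 3.37 TPM over the 9 libraries. Of 4 melanocyte markers 3 were listed, summing to 1.97 to 2.75 TPM with CAF exosomes, 2.34 to 2.57 TPM with hOMF exosomes and 1.94 to 2.57 TPM in control cells. The fibroblast sum was higher in every exosome library than in every control library and the endothelial sum lower, and their part in the results below was not tested. In such bulk RNA, fewer cells of a type and less RNA per cell cannot be told apart.

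The promoters of KLF4, called lower with both exosomes, and of KLF5, called lower with hOMF exosomes alone, are shown because both genes belong to a family whose members bind GC-rich and CACCC elements. RefSeq on GRCh38.p14 gave 9 promoter entries for 6 of the 9 genes, KLF4, KLF5, PAX9, SOX2, TFAP2A and TP63. Each sequence runs 5′ to 3′ on the strand of the gene, from 250 bases before the annotated start to 50 bases after it, and capitals mark matches on either strand to one of 6 motifs.
KLF4 chr9:107489720-107490019, minus strand: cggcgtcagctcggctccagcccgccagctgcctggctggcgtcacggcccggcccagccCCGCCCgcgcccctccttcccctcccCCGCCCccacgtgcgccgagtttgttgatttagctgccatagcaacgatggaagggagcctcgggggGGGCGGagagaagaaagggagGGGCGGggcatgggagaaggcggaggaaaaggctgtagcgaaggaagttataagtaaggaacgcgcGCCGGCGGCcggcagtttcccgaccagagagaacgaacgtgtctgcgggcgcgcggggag
KLF5 upstream start chr13:73054726-73055025, plus strand: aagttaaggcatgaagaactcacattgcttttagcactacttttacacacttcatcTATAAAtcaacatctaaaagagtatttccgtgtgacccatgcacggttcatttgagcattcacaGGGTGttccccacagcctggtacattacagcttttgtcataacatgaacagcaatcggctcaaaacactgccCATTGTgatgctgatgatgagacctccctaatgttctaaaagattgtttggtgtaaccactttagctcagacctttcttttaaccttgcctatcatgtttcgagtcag
KLF5 downstream start chr13:73058755-73059054, plus strand: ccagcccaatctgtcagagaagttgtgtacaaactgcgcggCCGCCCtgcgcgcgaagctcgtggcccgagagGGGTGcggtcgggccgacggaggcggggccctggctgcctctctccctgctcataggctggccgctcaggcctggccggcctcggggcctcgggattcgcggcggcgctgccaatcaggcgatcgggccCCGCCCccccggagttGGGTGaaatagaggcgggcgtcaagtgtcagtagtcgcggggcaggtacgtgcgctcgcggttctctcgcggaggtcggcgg
The motifs searched were GGGCGG and CACCC for KLF and SP factors, GCCNNNGGC for AP-2, AACCGGTT for GRHL factors, CATTGT for SOX2 and TATAAA for the TATA box. The KLF4 promoter held 4 matches to GGGCGG, a motif found in 44.95% of 35116 promoters of the same length, and 1 match to GCCNNNGGC, found in 23.2%. The upstream KLF5 promoter held 1 match each to TATAAA (11.53% of promoters), CACCC (59.87%) and CATTGT (10.78%). The downstream KLF5 promoter held 2 matches to GGGCGG and 2 to CACCC. AACCGGTT, found in 0.13% of promoters, was in none of these 3 windows. A match is a description of the letters and not a binding site.

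The 9 genes spanned a wide range of levels. On the TPM scale, which allows for transcript length, TP63 was the most abundant, with 96.73 ± 11.99 TPM with CAF exosomes, 91.27 ± 12.77 TPM with hOMF exosomes and 84.18 ± 10.11 TPM in control cells (SD, n = 3 each). TFAP2A and KLF5 followed, at 46.5 ± 2.0 and 41.4 ± 2.93 TPM in control cells, and the control libraries of these 2 genes did not overlap. KLF4 (14.6 ± 0.672 TPM), TFAP2C (13.8 ± 0.879) and GRHL2 (11.8 ± 0.498) formed a middle group in control cells, in which KLF4 and TFAP2C overlapped while GRHL2 lay below both. OVOL1 at 7.45 ± 0.78 TPM and PAX9 at 3.28 ± 0.0896 TPM were lower, each apart from its neighbours. SOX2 was barely detected, at 0 to 0.18 TPM in control cells. By their mean over the 9 libraries, TP63 ranked at the 88th percentile of the 12470 genes tested, GRHL2, TFAP2C and KLF4 between the 47.7th and the 48.7th, and PAX9 at the 20.5th.

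**Figure D1:**
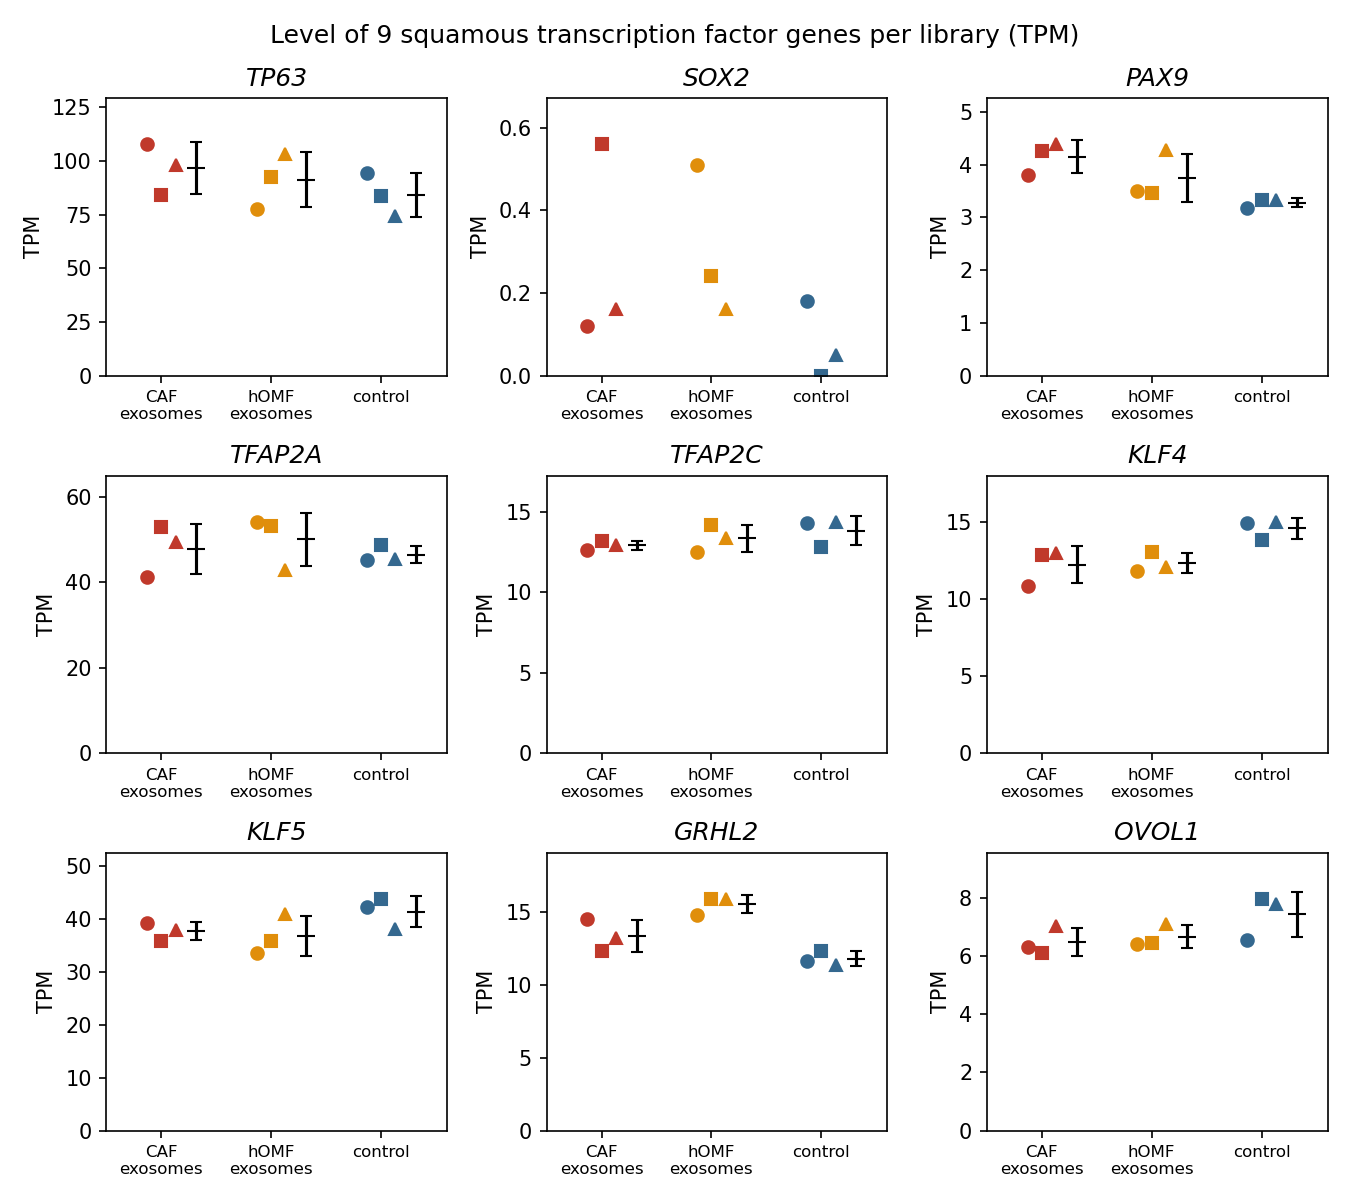
Level in TPM (vertical axes, each from 0) of the 9 genes in CAF exosome, hOMF exosome and control libraries; circles, squares and triangles are replicates 1, 2 and 3, and black bars are the mean ± SD of 3 libraries, left out for SOX2. All 3 hOMF exosome libraries of GRHL2 (14.85 to 15.91 TPM) lie above all 3 control libraries (11.42 to 12.38 TPM), and every exosome library of KLF4 lies below every control library.

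Changes were tested on the counts with edgeR's quasi-likelihood test and a Benjamini-Hochberg adjusted p under 0.05 over all 12470 genes, and the levels below are CPM, counts scaled to a common library size with TMM factors and not for length. With CAF exosomes 1 of the 8 factors tested was lower than in control cells and 0 were higher, in a comparison in which 18.2% of all genes were called, 9.51% higher and 8.64% lower. With hOMF exosomes 2 were lower and 1 was higher, where 23.2% of all genes were called, 11.8% higher and 11.4% lower. Between CAF and hOMF exosomes 0 of 8 were called, against 0.016% of all genes, 0.00802% in each direction, and the count was also 0 with DESeq2 and limma. At an unadjusted p under 0.05 there were 3 lower and 0 higher with CAF exosomes, 3 lower and 1 higher with hOMF exosomes, and 1 lower in CAF than in hOMF exosome libraries. Of all 12470 genes, 4094 had such a p with CAF exosomes, 4575 with hOMF exosomes and 947 between CAF and hOMF exosomes. The median absolute log2 fold change of the 8 factors was 0.177 with CAF exosomes and 0.193 with hOMF exosomes, close to the 0.164 and 0.178 of all genes tested. Exosome libraries and control libraries of 4 factors did not overlap in CPM with CAF exosomes and of 3 with hOMF exosomes, where 36.2% and 39.5% of all genes did not overlap. These shares of the factors cannot be read as particular to them. Both comparisons use the same 3 control libraries.

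**Figure D2:**
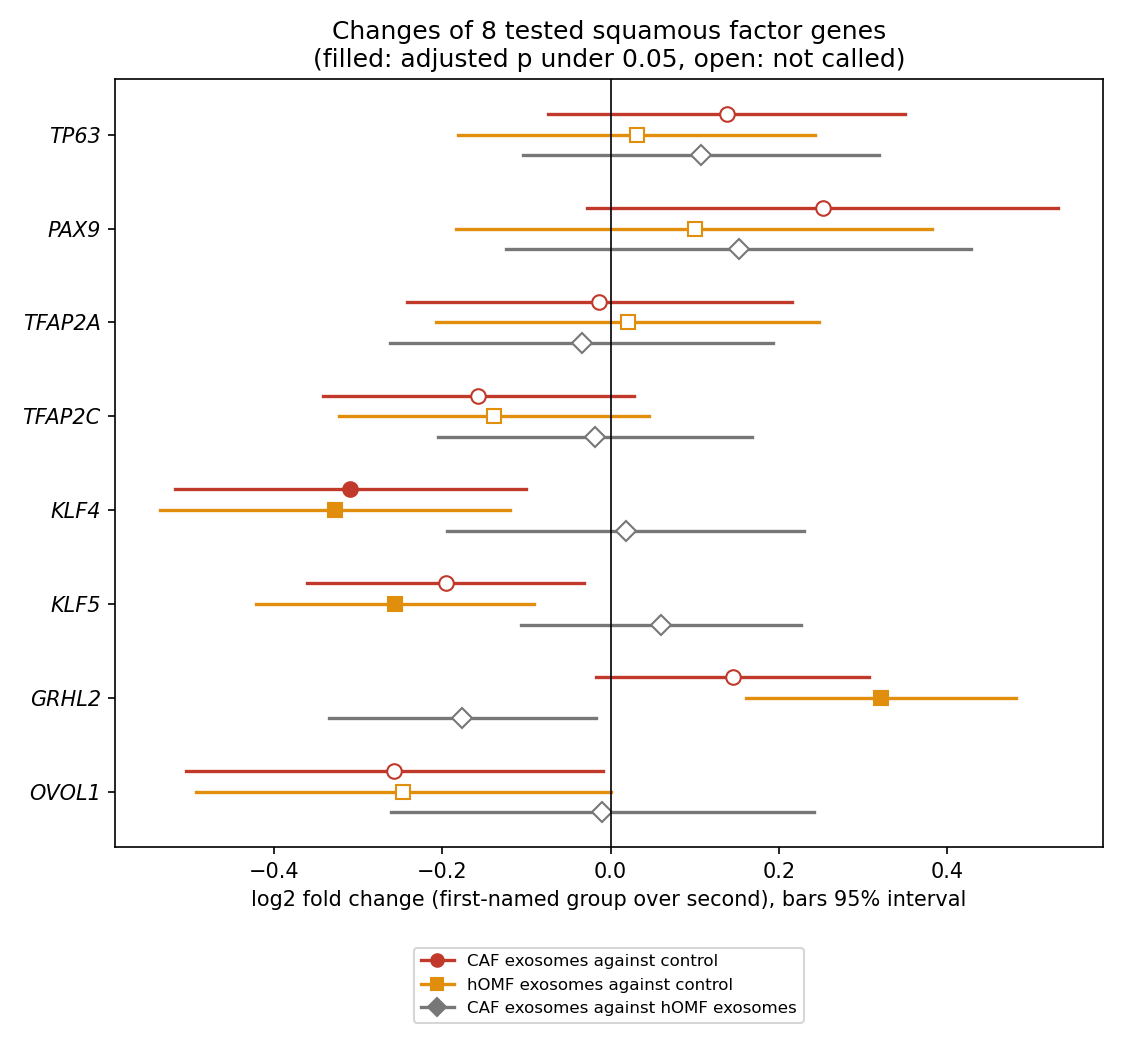
log2 fold changes (horizontal axis, first-named group over second) with 95% intervals for the 8 tested factors in the 3 comparisons; filled symbols have an adjusted p under 0.05. KLF4 is called against control with both exosomes (-0.31 with CAF exosomes, -0.33 with hOMF exosomes), and KLF5 (-0.26) and GRHL2 (0.32) with hOMF exosomes.

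KLF4 (NCBI gene 9314; chromosome 9, 107484852 to 107490482 on the minus strand of GRCh38), a zinc-finger factor needed for terminal differentiation and barrier formation in skin, was lower with both exosomes. Its level was 18.73, 23.32 and 23.53 CPM with CAF exosomes, 21.6, 22.82 and 20.48 CPM with hOMF exosomes, and 27.64, 26.02 and 27.68 CPM in control cells. Every exosome library was below every control library. The log2 fold change was -0.31 (SE 0.098, adjusted p = 0.0385) with CAF exosomes and -0.33 (SE 0.098, adjusted p = 0.0247) with hOMF exosomes, a level of 0.807 times control with CAF exosomes and 0.797 times control with hOMF exosomes. CAF exosome replicate 1 had the lowest level of all. The CAF call was not firm: it was lost in 14 of 20 alternative analyses, with log2 values from -0.36 to -0.21 and adjusted p from 0.00981 to 0.159, and among these when CAF exosome replicates 1 or 3, hOMF exosome replicate 2 or any 1 control library was left out. Without control replicate 3 the adjusted p was 0.101 (log2 -0.29) with CAF exosomes and 0.0689 (log2 -0.31) with hOMF exosomes, and the hOMF call was lost in 7 of 20 alternatives (adjusted p 0.01 to 0.0802), also without hOMF exosome replicate 1 or 3 or control replicate 1. CAF and hOMF exosome libraries of KLF4 overlapped, with a log2 difference of 0.02 (95% interval -0.19 to 0.23, adjusted p = 0.985) whose sign turned under other scalings.

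KLF5 (NCBI gene 688; chromosome 13, 73054976 to 73077542 on the plus strand), a related factor that in contrast is active in dividing basal cells, was lower with hOMF exosomes. Its level was 78.21, 75.33 and 79.2 CPM with CAF exosomes, 70.61, 72.22 and 80.26 CPM with hOMF exosomes, and 90.46, 95.21 and 81.11 CPM in control cells. In CPM every exosome library was below every control library, although control replicate 3, at 81.11 CPM, came close to hOMF exosome replicate 3. In TPM the groups overlapped, since CAF exosome replicate 1 had 39.31 TPM and hOMF exosome replicate 3 had 40.96 TPM, against 38.11 TPM in control replicate 3. The log2 fold change was -0.26 (SE 0.078, adjusted p = 0.0266) with hOMF exosomes and -0.20 (SE 0.078, adjusted p = 0.0913) with CAF exosomes. Without control replicate 3 it was -0.32 (adjusted p = 0.0145) with hOMF exosomes and -0.26 (adjusted p = 0.0494) with CAF exosomes, so the CAF comparison passed the threshold; over all alternatives the CAF adjusted p ran from 0.0386 to 0.302. The hOMF call was lost in 7 of 20 alternatives (adjusted p 0.00995 to 0.125), among them the ones without hOMF exosome replicate 1 or 2 or without control replicate 1 or 2. The CAF and hOMF exosome groups differed by a log2 value of 0.06 (95% interval -0.11 to 0.23, adjusted p = 0.919).

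GRHL2 (NCBI gene 79977; chromosome 8, 101492432 to 101669726 on the plus strand), a Grainyhead-like factor that keeps adhesion and junction genes on, was the factor that was higher with hOMF exosomes. Its level was 46.55, 40.94 and 43.81 CPM with CAF exosomes, 48.84, 50.1 and 49.38 CPM with hOMF exosomes, and 39.64, 41.1 and 38.04 CPM in control cells. The hOMF exosome libraries lay close together and above all other libraries, while CAF exosome replicate 2 fell within the control range. With hOMF exosomes the log2 fold change was 0.32 (SE 0.076, adjusted p = 0.00679), a level 1.25 times that of control (95% interval 1.12 to 1.4). This call held in all 20 alternatives, with log2 values from 0.29 to 0.37 and adjusted p from 0.000635 to 0.0337, and without control replicate 3 it was 0.29 (adjusted p = 0.032). With CAF exosomes the log2 fold change was 0.15 (SE 0.076, adjusted p = 0.2). All 3 CAF exosome libraries were below all 3 hOMF exosome libraries, a lack of overlap seen for 13.7% of all genes, and the log2 difference of -0.18 (95% interval -0.34 to -0.02) had an adjusted p of 0.606. An antisense gene, AP001207.3, overlaps exons of GRHL2 on the other strand, and because the strand setting of the counting was not given, reads from the pair cannot be told apart.

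In TPM the order of GRHL2 and KLF4 differed between the groups, a pair chosen after its values were seen. The ratio of GRHL2 to KLF4 was 1.34, 0.961 and 1.02 with CAF exosomes, 1.26, 1.22 and 1.32 with hOMF exosomes, and 0.783, 0.898 and 0.761 in control cells. In every control library KLF4 was the more abundant transcript, in every hOMF exosome library GRHL2 was, and the CAF exosome libraries were divided.

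**Figure D3:**
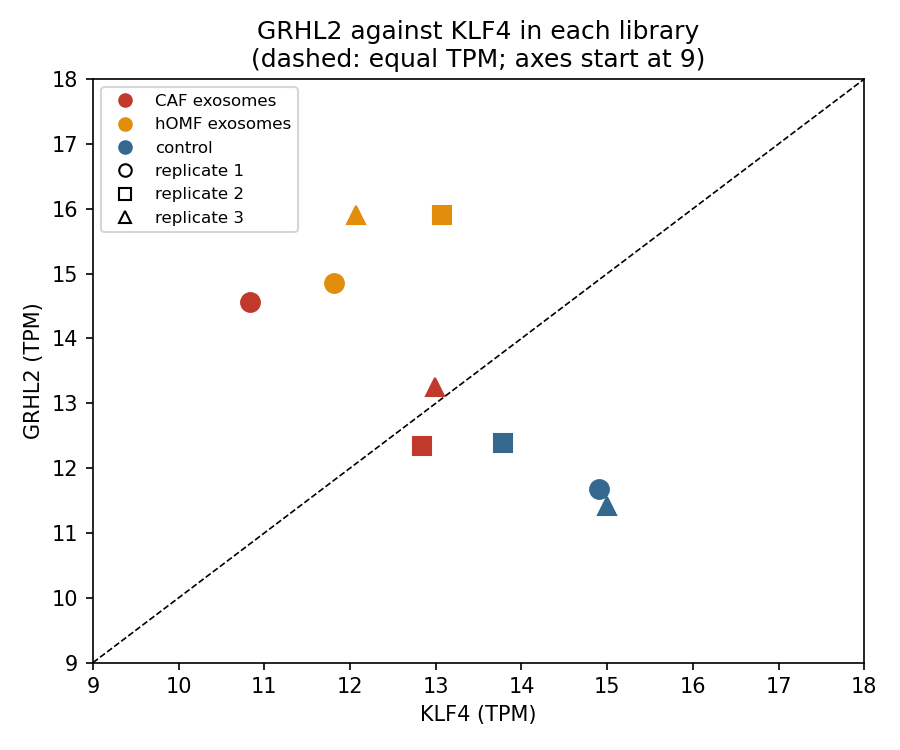
GRHL2 (vertical axis, TPM) against KLF4 (horizontal axis, TPM) in the 9 libraries; colour marks the group, symbol shape the replicate, the dashed line equal levels, and both axes start at 9 TPM. The 3 hOMF exosome libraries lie above the line (ratios 1.22 to 1.32) and the 3 control libraries below it (0.761 to 0.898).

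TP63 (NCBI gene 8626; chromosome 3, 189631416 to 189897279 on the plus strand), the master regulator of the basal layer, did not pass the test in any comparison. Its level was 306.2, 250.4 and 292 CPM with CAF exosomes, 234.8, 265.3 and 287.2 CPM with hOMF exosomes, and 288.2, 258.2 and 224.8 CPM in control cells. The 3 groups overlapped, with the lowest of all libraries being control replicate 3. The log2 fold change was 0.14 (95% interval -0.07 to 0.35, adjusted p = 0.353) with CAF exosomes and 0.03 (-0.18 to 0.24, adjusted p = 0.857) with hOMF exosomes, and without control replicate 3 these were 0.05 and -0.06. The TP63 count was fractional in 9 of 9 libraries, so RSEM shared some of its reads with other features, and the table does not separate the TA and ΔN isoforms.

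TFAP2A (NCBI gene 7020; chromosome 6, 10393186 to 10419659 on the minus strand), which encodes the AP-2 alpha protein of ectoderm and epidermis, did not pass the test either. It was at 85.26, 110.4 and 103.8 CPM with CAF exosomes, 114.2, 107.6 and 85.22 CPM with hOMF exosomes, and 97.82, 107.6 and 97.06 CPM in control cells. The log2 fold changes were -0.01 (95% interval -0.24 to 0.22, adjusted p = 0.946) with CAF exosomes and 0.02 (-0.21 to 0.25, adjusted p = 0.911) with hOMF exosomes, and their signs turned under several alternatives. CAF exosome replicate 1 and hOMF exosome replicate 3 had the highest TP63 and the lowest TFAP2A of their groups. The TPM ratio of TP63 to TFAP2A was 2.61, 1.59 and 1.99 with CAF exosomes, 1.44, 1.75 and 2.41 with hOMF exosomes and 2.1, 1.71 and 1.64 in control cells, and the 3 groups overlapped in it. Exons of the antisense genes TFAP2A-AS1 and TFAP2A-AS2 overlap those of TFAP2A.

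**Figure D4:**
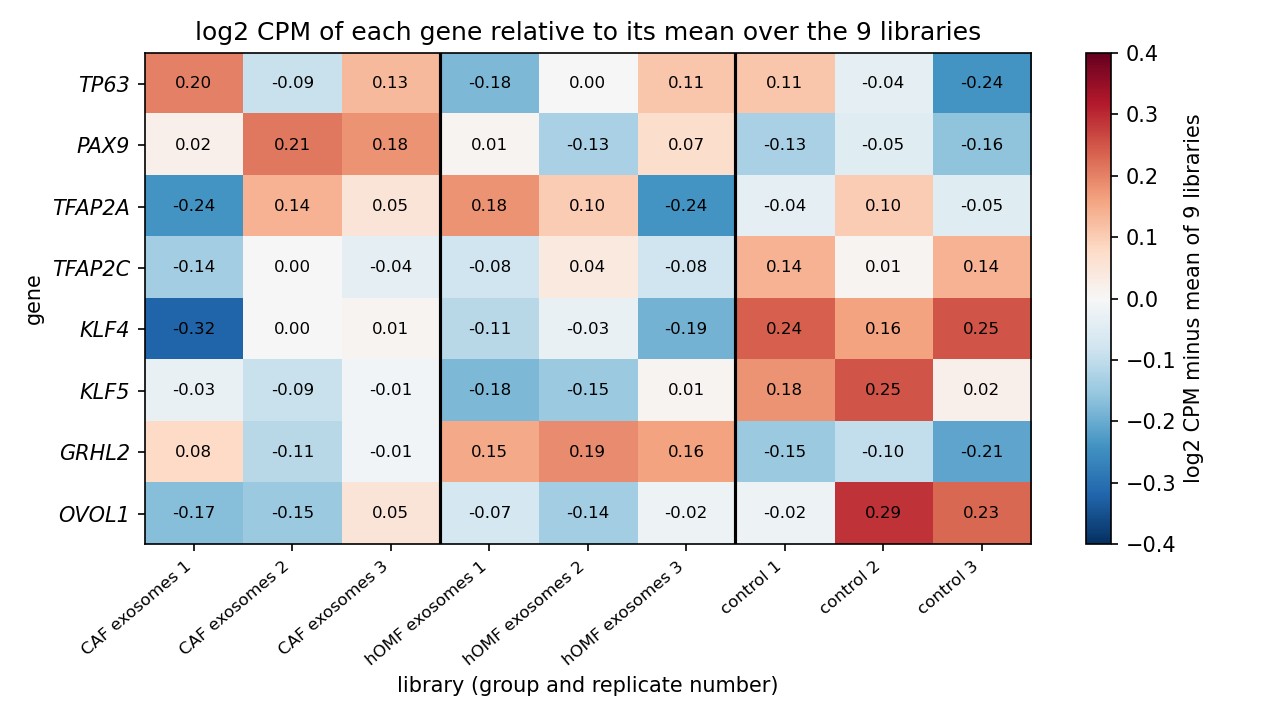
log2 CPM of each tested factor (rows) in each library (columns) as the difference from the mean of all 9 libraries; red is above the mean and blue below it. KLF4 and KLF5 are above their mean in all 3 control libraries, GRHL2 in all 3 hOMF exosome libraries, and TP63 and TFAP2A vary within every group.

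TFAP2C (NCBI gene 7022; chromosome 20, 56629302 to 56639283 on the plus strand), the AP-2 gamma gene, was at 21.23, 23.32 and 22.7 CPM with CAF exosomes, 22.12, 24.04 and 22.01 CPM with hOMF exosomes, and 25.73, 23.49 and 25.76 CPM in control cells. In CPM the CAF exosome libraries were all below the control libraries, by 23.32 against 23.49 CPM at the nearest, and the hOMF exosome libraries overlapped them. In TPM the CAF exosome libraries, at 12.63, 13.21 and 12.93 TPM, overlapped the lowest control library, at 12.82 TPM. Its log2 fold change was -0.16 (95% interval -0.34 to 0.03, adjusted p = 0.223) with CAF exosomes and -0.14 (-0.32 to 0.05, adjusted p = 0.266) with hOMF exosomes.

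OVOL1 (NCBI gene 5017; chromosome 11, 65787022 to 65797219 on the plus strand), a zinc-finger repressor that helps epidermal cells stop dividing, was at 11.15, 11.32 and 13.02 CPM with CAF exosomes, 11.97, 11.37 and 12.38 CPM with hOMF exosomes, and 12.36, 15.36 and 14.68 CPM in control cells. Control replicate 1 lay within the exosome range. The log2 fold change was -0.26 (95% interval -0.5 to -0.01, adjusted p = 0.139) with CAF exosomes and -0.25 (-0.49 to 0, adjusted p = 0.136) with hOMF exosomes. The antisense gene AP001266.1 overlaps its exons.

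PAX9 (NCBI gene 5083; chromosome 14, 36657568 to 36679715 on the plus strand), a paired-box factor of the oral epithelium, was at 7.759, 8.852 and 8.679 CPM with CAF exosomes, 7.72, 6.995 and 8.026 CPM with hOMF exosomes, and 7, 7.407 and 6.859 CPM in control cells. All CAF exosome libraries were above all control libraries, in CPM and in TPM. The log2 fold change was 0.25 (95% interval -0.03 to 0.53, adjusted p = 0.198) with CAF exosomes and 0.1 (-0.18 to 0.38, adjusted p = 0.627) with hOMF exosomes. The protein-coding gene SLC25A21 overlaps exons of PAX9 on the other strand. Leaving out control replicate 3 put none of TP63, TFAP2A, TFAP2C, OVOL1 and PAX9 past the threshold in either comparison with control, nor GRHL2 with CAF exosomes. Between CAF and hOMF exosomes TP63, TFAP2A, TFAP2C, OVOL1 and PAX9 did not pass the test either, with log2 differences (CAF minus hOMF) of 0.11 for TP63 (95% interval -0.10 to 0.32), 0.15 for PAX9 (-0.12 to 0.43), -0.03 for TFAP2A (-0.26 to 0.19), -0.02 for TFAP2C (-0.20 to 0.17) and -0.01 for OVOL1 (-0.26 to 0.24).

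SOX2 (NCBI gene 6657; chromosome 3, 181711924 to 181714436 on the plus strand), the stem-cell and squamous lineage factor, had too few counts to be tested. The libraries held 2, 10 and 3 counts with CAF exosomes, 9, 4 and 3 with hOMF exosomes, and 3, 0 and 1 in control cells. Both exosome groups overlapped the control group, and the 0 counts of control replicate 2 allow a level of up to 0.271 CPM (3 counts). Summed over a group this is 0.429 CPM (unscaled by TMM) with CAF exosomes (95% exact Poisson interval 0.24 to 0.708), 0.452 with hOMF exosomes (0.258 to 0.734) and 0.113 in control cells (0.0309 to 0.29). These intervals cover counting error only and not the spread between libraries. With no filter on low counts, edgeR gave a log2 fold change of 1.80 with CAF exosomes (adjusted p = 0.241). With hOMF exosomes it was 1.86 (adjusted p = 0.196). The counts were few and varied between libraries, and a difference was neither shown nor excluded.

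Genes known as targets of p63 in keratinocytes, a list of 22 basal genes that were all tested, held 5 higher and 1 lower with CAF exosomes, where 18.2% of all genes were called, and 5 higher and 2 lower with hOMF exosomes, where 23.2% were called. Their median log2 fold change was 0.11 with CAF exosomes and 0.03 with hOMF exosomes, against -0.005 and 0.003 over all genes tested in the same comparisons. The keratin KRT5 averaged 1232 ± 36.6 CPM with CAF exosomes and 1062 ± 13.6 CPM with hOMF exosomes, against 747.9 ± 67.9 CPM in control cells (SD, n = 3 each), with a log2 fold change of 0.72 with CAF exosomes and 0.51 with hOMF exosomes. The growth factor receptor gene FGFR3 rose by 0.78 with CAF exosomes and 0.70 with hOMF exosomes, and FGFR2 by 0.55 with CAF exosomes and 0.57 with hOMF exosomes. The calls of KRT5, FGFR3 and FGFR2 held in all 20 alternatives. KRT14, the partner of KRT5, was higher by 1.14 with CAF exosomes and 0.57 with hOMF exosomes, and in the second its libraries overlapped those of control. The others, named to complete the counts, were PKP1 (0.65 with CAF exosomes), KRT15 (0.48 with hOMF exosomes), COL17A1 (-0.33 with hOMF exosomes) and S100A2 (-0.27 with CAF exosomes and -0.48 with hOMF exosomes). Without control replicate 3 the list held 5 higher and 1 lower with CAF exosomes, and 4 higher and 3 lower with hOMF exosomes. The KRT14 call with hOMF exosomes was then lost (log2 0.35, adjusted p = 0.167, the highest of its 20 alternatives, of which 6 lost it). Over the 20 alternatives COL17A1 lost its call with hOMF exosomes in 7, S100A2 with CAF exosomes in 6 and PKP1 with CAF exosomes in 1.

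Other transcription factors of stratified epithelium, 18 tested of 25 listed, held 3 higher and 2 lower with CAF exosomes, and 2 higher and 4 lower with hOMF exosomes, against the same 18.2% and 23.2% of all genes called. Their median log2 fold change was -0.19 with CAF exosomes and -0.07 with hOMF exosomes, against -0.005 and 0.003 over all genes tested. KLF6, another member of the KLF family, was at 101.4 ± 4.86 CPM with CAF exosomes and 88.62 ± 5.25 CPM with hOMF exosomes, against 154.8 ± 16.3 CPM in control cells (SD, n = 3 each), with a log2 fold change of -0.61 with CAF exosomes (adjusted p = 0.000202) and -0.80 with hOMF exosomes (adjusted p = 1.74e-05). TP73, a relative of TP63, rose by 0.60 on the log2 scale with CAF exosomes and 0.68 with hOMF exosomes. ID1, an inhibitor of basic helix-loop-helix factors, rose by 0.56 with CAF exosomes and 0.77 with hOMF exosomes. Other calls were ZNF750 (0.64 with CAF exosomes), PRDM1 (-0.59 with hOMF exosomes) and SOX9 (-0.46 with hOMF exosomes, with overlapping libraries). The KLF6 and TP73 calls and that of ID1 with hOMF exosomes held in all 20 alternatives. Without control replicate 3 the list held 2 higher and 3 lower with CAF exosomes, and the same numbers with hOMF exosomes. The calls of ZNF750 (log2 0.56, adjusted p = 0.117) and PRDM1 (log2 -0.53, adjusted p = 0.0818) were then lost, and over the 20 alternatives ZNF750 lost its call in 6 (adjusted p 0.0267 to 0.118), PRDM1 in 7 (0.0179 to 0.121), SOX9 in 11 and ID1 with CAF exosomes in 1. GRHL1, a paralog of GRHL2, did not pass the test with CAF exosomes (log2 0.11, adjusted p = 0.564) or hOMF exosomes (log2 -0.06, adjusted p = 0.788).

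Of 8 listed genes, other members of the TFAP2 family and its partners, 4 were tested. Of all genes, 18.2% were called with CAF exosomes and 23.2% with hOMF exosomes. CITED2, a co-activator that binds AP-2 proteins, was the 1 called gene of these 4 in each comparison. It averaged 65.6 ± 3.17 CPM with CAF exosomes and 62.7 ± 4.86 CPM with hOMF exosomes, against 96.7 ± 12.1 CPM in control cells (SD, n = 3 each), and the log2 fold changes of -0.56 with CAF exosomes and -0.63 with hOMF exosomes held their calls in all 20 alternatives.

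Among 13 epithelial genes linked to GRHL2, 0 were called with CAF exosomes, where 18.2% of all genes were called. With hOMF exosomes 1 was lower, where 23.2% were called. At an unadjusted p under 0.05 by edgeR 2 were higher with CAF exosomes, where 4094 of all 12470 genes passed. With hOMF exosomes 1 was higher and 1 lower at that threshold, where 4575 passed. Other tools or settings called up to 2 higher and up to 1 lower with CAF exosomes. The gene called with hOMF exosomes was ST14, which encodes the protease matriptase, with a log2 fold change of -0.29 (adjusted p = 0.0128). Its call was lost in 3 of 20 alternatives, the ones without hOMF exosome replicate 2 or 3 or control replicate 2. RAB25 was the 1 higher gene at an unadjusted p under 0.05 with hOMF exosomes (log2 0.20, edgeR adjusted p = 0.0792), named to complete the counts. CLDN1 had the smallest p with CAF exosomes (0.22, adjusted p = 0.065). The adhesion gene CDH1, named for its textbook link to GRHL2 after its values were seen, averaged 631.8 ± 22.6 CPM with hOMF exosomes and 630 ± 74.8 CPM in control cells (SD, n = 3 each; log2 fold change 0.004, adjusted p = 0.979).

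Of 7 mesenchymal genes tested, ZEB2 was called lower with CAF exosomes (log2 -2.82, adjusted p = 0.0473), but the call rests on control replicate 3, and without it the value was 0.51 with CAF exosomes and 1.27 with hOMF exosomes, in place of -2.06. ZEB2 was the 1 called of the 7 with CAF exosomes, where 18.2% of all genes were called. With hOMF exosomes 0 of the 7 were called by edgeR, where 23.2% of all genes were, and other tools or settings called up to 1. At an unadjusted p under 0.05 by edgeR 1 was higher and 2 were lower with hOMF exosomes, where 4575 of all 12470 genes passed. Of 17 differentiation gene symbols searched, 10 were in the expression table and only 4 passed the filter. SPRR1A, a cornified envelope precursor, fell by 1.24 with hOMF exosomes (edgeR adjusted p = 0.019). This call was lost in 6 of 19 alternatives (log2 values -1.42 to -0.82), also without control replicate 3 (adjusted p = 0.0645). SPRR1A was the 1 called of these 4 with hOMF exosomes. With CAF exosomes 0 of these 4 were called, also by DESeq2 and limma, and 0 had an unadjusted p under 0.05 by edgeR.

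Among 10 ubiquitin ligases that act on p63 or KLF proteins, 1 was lower with CAF exosomes, where 18.2% of all genes were called. With hOMF exosomes 2 were lower, where 23.2% were called, and 0 were higher in either comparison. NEDD4L was lower with CAF exosomes (log2 -0.23, adjusted p = 0.0414) and with hOMF exosomes (log2 -0.28, adjusted p = 0.0161), and NEDD4 with hOMF exosomes (-0.30, adjusted p = 0.018). The NEDD4L call with CAF exosomes was lost in 12 of 20 alternatives and without control replicate 3 had an adjusted p of 0.103 (range 0.0246 to 0.143). With hOMF exosomes NEDD4L lost its call in 5 of 20 (adjusted p 0.00325 to 0.0977), among them without hOMF exosome replicate 1 or 2 or control replicate 2, and NEDD4 in 4 of 20 (0.000283 to 0.14), among them without hOMF exosome replicate 1 or control replicate 1. Between CAF and hOMF exosomes 0 genes of the 7 lists were called by edgeR, DESeq2 or limma. At an unadjusted p under 0.05 by edgeR, 5 of the 22 basal genes were higher with CAF than with hOMF exosomes and 1 was lower. CLDN1 and ESRP2 of the 13 epithelial genes also passed, as did KLF6 (of 18 genes), ZEB1 (of 7) and SPRR1A (of 4). Of all 12470 genes tested, 947 passed. KRT14 had the smallest p of the basal list (log2 0.57, adjusted p = 0.369) and CLDN1 that of the epithelial list (log2 0.27, adjusted p = 0.369).

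**Figure D5:**
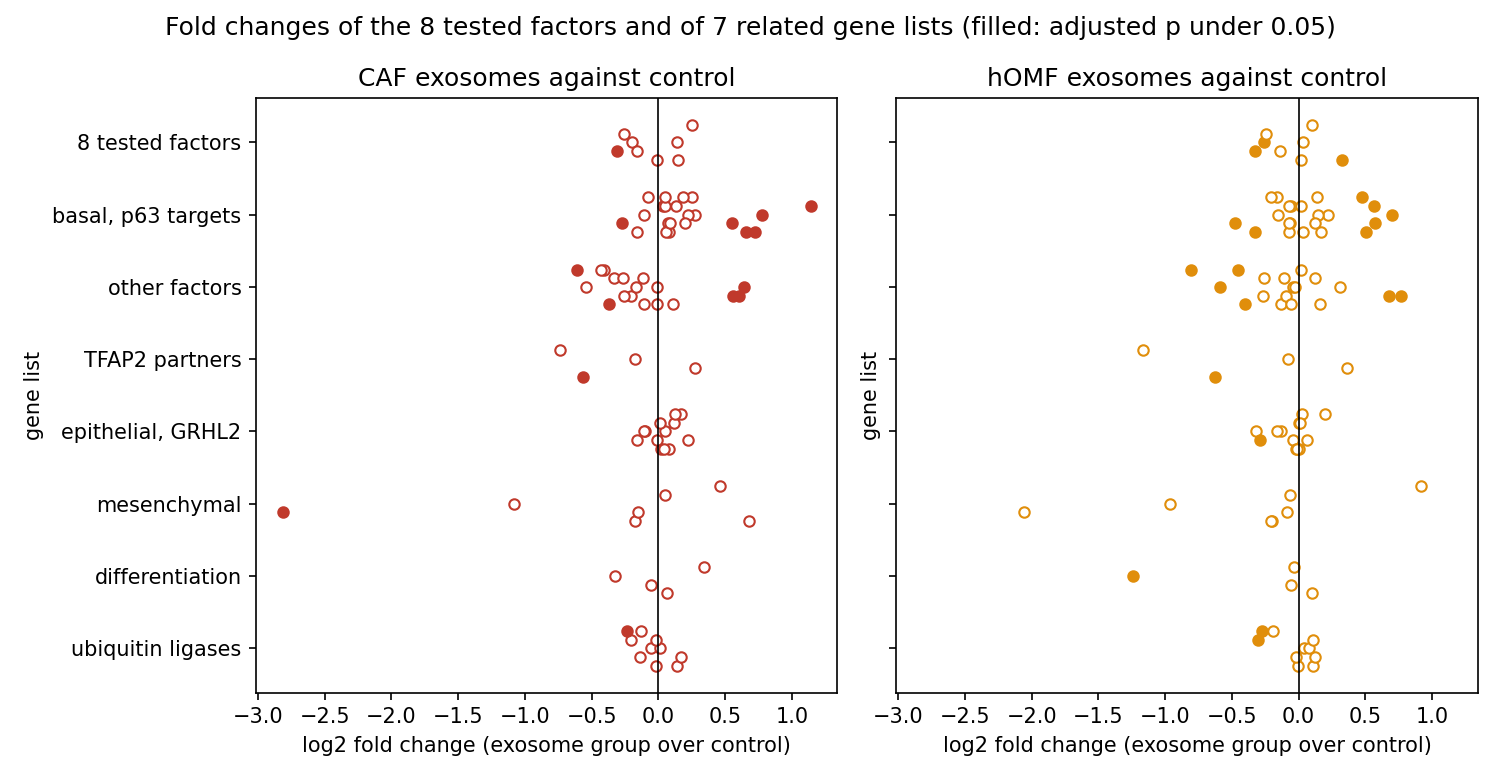
log2 fold changes (horizontal axes, exosome group over control) of the 8 tested factors and of the tested genes of 7 related lists, with CAF exosomes on the left and hOMF exosomes on the right; each circle is a gene and filled circles have an adjusted p under 0.05. The 8 factors lie between -0.33 and 0.32, while KRT5, FGFR3 and KRT14 lie further to the right; the ZEB2 circle at -2.82 rests on control replicate 3.

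The genes whose log2 CPM followed each factor most closely over the 9 libraries were sought among the tested genes with a mean of at least 10 CPM, 9313 for each factor and 9314 for PAX9. GRHL2 was followed most closely by TSPYL4 (Pearson r = 0.989, Spearman rho = 0.933) and RNF168 (r = 0.976, rho = 0.9). KLF4 was followed by TOLLIP (r = 0.983, rho = 0.95) and RNPEPL1 (r = 0.979, rho = 0.983), and KLF5 by TMEM127 (r = 0.981, rho = 0.95) and the glycolytic gene TPI1 (r = 0.967, rho = 0.983). TP63 was followed by TIPARP (r = 0.972, rho = 0.95) and EMC1 (r = 0.951, rho = 0.983), and TFAP2A by BCL7C (r = 0.959, rho = 0.967) and CCDC9 (r = 0.956, rho = 0.867). The pairs for TFAP2C were MIEF2 (r = 0.96, rho = 0.967) and SPATS2L (r = 0.92, rho = 0.883), for OVOL1 FZR1 (r = 0.949, rho = 0.917) and SLC12A7 (r = 0.941, rho = 0.717), and for PAX9 MBOAT7 (r = 0.927, rho = 0.883) and RGPD6 (r = 0.913, rho = 0.933). The points of a correlation share their libraries, depth and groups, and with so many genes searched over 9 libraries these values describe the data only.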

How the data were processed

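Poly(A) RNA of 9 libraries in 3 groups was sequenced with dUTP strand marking, per the labels' protocols. The authors deposited expected counts, FPKM and TPM per gene and library; per the submitters' processing notes these came from RSEM 1.2.8 with Bowtie2 2.2.5. Deposited FPKM are scaled by length and depth, and deposited TPM to an equal sum per library. The notes name a mouse build although the identifiers are human, so coordinates come from GENCODE 29 (GRCh38) and not from the authors. For the annotation and strand setting, the sources used here give nothing. Columns were matched to samples by name, and 0 columns lacked a sample; the authors' group means were not used.

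Expected counts were rounded and filtered with filterByExpr (minimum count 10, minimum total 15), leaving 12470 genes, and fitted with edgeR 4.0.16 (TMM, quasi-likelihood, two-sided, 6 residual degrees of freedom, all 9 libraries, group as the only term). DESeq2 1.42.0, limma 3.58.1, other scalings and filters and leaving out each library were among 20 alternatives; the fit was tested on simulated data. R 4.3.3 and python 3.11.15 were used. Of each list, up to 3 called genes with the smallest p were named, or the 1 with the smallest p where none was called; 1 such result is not reported here. The members and lists were chosen with earlier results of these data known. Nothing says that replicates are separate cultures, so the p-values reflect the spread among these 9 libraries alone, which may be technical.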

Additional observations from a re-analysis of the deposited data

How the results depend on the processing

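GRHL2 with hOMF exosomes passed the threshold in all 20 alternatives, while the KLF4 and KLF5 calls did not. With CAF exosomes the number of factors called, 1 with edgeR, was 0 under DESeq2, limma on log2(FPKM + 1) and log2(FPKM + 0.1), no TMM factors, upper-quartile scaling, no filter and a fit of only the 6 libraries compared, 2 when GC content and transcript length were corrected for, an alternative chosen after seeing the data, and 0 to 1 with 1 library left out. With hOMF exosomes it was 3 with edgeR and limma-voom, 1 under both limma fits on FPKM and without TMM factors, and 1 to 3 with 1 library left out. Genes called numbered 2264 with CAF exosomes, 1343 to 2389 with 1 library left out (1343 without CAF exosome replicate 3, 1389 without control replicate 2 and 1442 without control replicate 3); with hOMF exosomes 2896, 1695 to 3096 with 1 left out (1695 without hOMF exosome replicate 2). Between CAF and hOMF exosomes 2 genes were called, 36 under DESeq2, 18 under the GC and length correction, 0 under limma-voom, both limma fits on FPKM, no TMM factors and only the 6 libraries, and 0 to 8 with 1 library left out. Calls in the higher direction made up 52.4% with CAF exosomes and 50.9% with hOMF exosomes, 63.1% and 67% without TMM factors, 62.4% and 61.7% under upper-quartile scaling, 64% and 68.7% under limma on log2(FPKM + 1), 64.5% and 69% on log2(FPKM + 0.1), and 43.3% and 42.3% under the GC and length correction.

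Directions turned only for values near 0 and for ZEB2. TFAP2A with CAF exosomes was 0.001 under both limma fits on FPKM and 0.014 without TMM factors and under upper-quartile scaling. KLF4 between CAF and hOMF exosomes was -0.015 and -0.017 under the limma fits on FPKM, -0.008 without TMM factors and -0.014 under the GC and length correction. With 1 library left out, log2 values ran from -0.087 to 0.088 for TFAP2A with CAF exosomes, -0.066 to 0.147 for TFAP2A and -0.058 to 0.121 for TP63 with hOMF exosomes, and between CAF and hOMF exosomes from -0.032 to 0.116 for KLF4, -0.154 to 0.067 for TFAP2A, -0.047 to 0.023 for TFAP2C and -0.078 to 0.031 for OVOL1. ZEB2 ran from -3.356 to 0.512 with CAF exosomes and from -2.602 to 1.272 with hOMF exosomes, the upper ends being those without control replicate 3. The cause of these changes was not tested, apart from control replicate 3 for ZEB2.

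Pairing of the libraries by replicate number was neither shown nor excluded. Deviations of libraries with the same number correlated at -0.154 to 0.14, and those with different numbers at -0.143 to 0.181. Of 9 libraries, 5 correlated best with a library of their own number. With the replicate block 0 factors were called with CAF exosomes, 3 with hOMF exosomes and 0 between them, and 2101, 2718 and 2 genes. At these depths, 3 counts in a library correspond to 0.229 to 0.273 CPM, which limits what can be said of SOX2.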
